A study of Homo sapiens with 40 samples.

Results

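The mitochondrial carriers of the SLC25 family move metabolites, nucleotides, cofactors and ions across the inner mitochondrial membrane. They were followed here as transcripts in HEK293T cells, a human embryonic kidney line, that carried or lacked SLC25A12 and were treated with antimycin A, which blocks complex III of the respiratory chain. Members were the gene rows named SLC25A followed by a number, plus UCP2, without SLC25A11, SLC25A12 and SLC25A13, and with a mean of 10 or more counts over the 40 libraries. The name alone matched 46 rows, and 41 of them met the count minimum, among 28278 gene rows in all. All 41 members were among the 16739 genes tested. The 5 rows below the minimum were SLC25A2, SLC25A31, SLC25A41, SLC25A47 and SLC25A52.

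The 5 lines, each with 4 libraries in antimycin A (40 nM, 6 hours) and 4 in vehicle, differed in SLC25A12, an aspartate/glutamate carrier of the malate-aspartate shuttle. The most modified line was knocked out for SLC25A12, carried the SLC25A12-F137S allele and, in addition, a construct labelled dMTS-DELE1. Another line was the knockout with SLC25A12-F137S alone (F137S), and another is labelled as the knockout with SLC25A12-WT (labelled rescue). The remaining lines were the knockout with empty vector (KO) and the wild type with empty vector (WT). The labels call the 4 libraries of a group biological replicates. They do not say whether these came from separate cultures, whether a line is 1 clone, or which promoter drives a construct. The p-values therefore measure the spread between these libraries, of which a part may be technical.

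Each library held between 30.7 and 32.0 times 1e6 counts. All 8 HEK293T marker genes were present in every library, and 17 of 18 markers of other cell types stayed at or under 1.05 CPM (counts per 1e6 library counts). The exception, the fibroblast marker COL1A1, stood at 14.8 to 20.9 CPM. These marker values were not scaled further, whereas CPM in the rest of the text is after trimmed-mean normalization. In vehicle, SLC25A12 itself ran from 3693 to 3745 CPM with dMTS-DELE1, 1826 to 1867 CPM with F137S alone, 38.4 to 39.2 CPM in the labelled rescue, 2.96 to 3.43 CPM in KO and 36.1 to 39.9 CPM in WT. The labelled rescue thus had the SLC25A12 level of WT rather than that of the other lines with an added SLC25A12 allele. Against WT it had 0 of 16739 genes called in vehicle (edgeR quasi-likelihood test; 778 genes, 4.65%, at an unadjusted p under 0.05), and none of the 41 members was called by DESeq2 either. Its name here gives the label, and no direction is drawn from it alone. SLC25A13, the other aspartate/glutamate carrier, and SLC25A11, the malate/oxoglutarate carrier of the same shuttle, were lower in KO than in WT in vehicle, with log2 fold changes of -0.19 ± 0.03 (SE) and -0.38 ± 0.03 (SE) (adjusted p = 1.09e-08 and 6.28e-20).

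As background, the carriers share a fold of repeated helix pairs around a central substrate path, and nearly all are made in the cytosol and imported into the inner membrane. The ADP/ATP and phosphate carriers feed ATP synthase, the citrate, dicarboxylate and glutamate carriers link the tricarboxylic acid cycle to the cytosol, and others supply nucleotides, coenzyme A, NAD, folate, iron and glutathione. DELE1 is known as a relay that carries mitochondrial stress, such as respiratory inhibition, to the kinase HRI and so to the integrated stress response (ISR), in which ATF4 induces amino acid and stress genes.

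By role, the 41 members comprised 3 ADP/ATP carriers (SLC25A4, SLC25A5 and SLC25A6) and 3 carriers of ATP-Mg and phosphate (SLC25A23, SLC25A24 and SLC25A25). Another 9 carry nucleotides, coenzymes or vitamins, among them SLC25A16, SLC25A17, SLC25A26, SLC25A32, SLC25A33, SLC25A36, SLC25A42 and SLC25A51. Phosphate, iron or glutathione is carried by 5 members, SLC25A3, SLC25A28, SLC25A37, SLC25A39 and SLC25A40, and amino acids by 6, SLC25A15, SLC25A18, SLC25A22, SLC25A29, SLC25A38 and SLC25A44. The carriers of di- and tricarboxylates, oxoacids and acylcarnitines were 4, SLC25A1, SLC25A10, SLC25A20 and SLC25A21, and the uncoupling protein branch also had 4, UCP2, SLC25A14, SLC25A27 and SLC25A30. The last 7, SLC25A34, SLC25A35, SLC25A43, SLC25A45, SLC25A46, SLC25A48 and SLC25A53, have little known or debated substrates.

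For 5 members with large called changes described below, chosen by hand, not by rank, the 100 bases upstream of the transcription start are shown. They come from RefSeq on GRCh38.p14 and read 5′ to 3′ on the gene's strand, with CpG pairs in capitals. The windows lie at chr1:15736158-15736257 (plus strand), chrX:104157010-104157109 (minus), chr14:100306445-100306544 (minus), chr19:6459793-6459892 (minus) and chr17:81712184-81712283 (plus).
SLC25A34: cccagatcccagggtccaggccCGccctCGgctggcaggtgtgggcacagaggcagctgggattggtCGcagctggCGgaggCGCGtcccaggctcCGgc
SLC25A53: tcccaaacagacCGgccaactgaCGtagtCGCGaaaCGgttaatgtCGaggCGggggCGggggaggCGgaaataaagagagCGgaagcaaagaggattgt
SLC25A29: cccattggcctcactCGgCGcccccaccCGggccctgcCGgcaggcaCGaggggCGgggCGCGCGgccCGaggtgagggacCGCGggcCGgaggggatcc
SLC25A23: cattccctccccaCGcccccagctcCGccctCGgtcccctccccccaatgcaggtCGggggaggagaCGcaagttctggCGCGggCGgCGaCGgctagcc
SLC25A10: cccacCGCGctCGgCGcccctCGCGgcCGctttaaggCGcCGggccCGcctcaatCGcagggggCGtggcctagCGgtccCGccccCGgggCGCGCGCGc

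The 5 windows held 7, 10, 13, 10 and 19 CpG pairs in the order printed, against a median of 5 over all RefSeq promoters, so all of these promoters were richer in CpG than the middle of the genome's promoters. The SLC25A10 window was the richest, and 1.87% of all promoters had as many or more. In the longer promoter stretches of 300 bases, 35 members had an entry, with 47 promoters between them. Neither TGATGNAA, the core of the element bound by CCAAT enhancer binding proteins with ATF factors, nor GCATGCGC, the core of the nuclear respiratory factor site, was found on either strand of those 47. The letters occur in 3.62% and 3.05% of all 35116 promoters of that length.

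Levels between carriers can be compared only per length. In WT vehicle cells, SLC25A5, the ADP/ATP carrier typical of dividing cells, stood first at 457 ± 9.09 CPM per kilobase of exon (SD, n = 4; exon lengths from GENCODE, since the sources used here do not name the authors' annotation). The citrate carrier SLC25A1 followed at 78.4 ± 2.57, the glutathione importer SLC25A39 at 60.1 ± 1.59, the phosphate carrier SLC25A3 at 55.3 ± 0.728 and the ornithine carrier SLC25A15 at 38.8 ± 0.824 CPM per kilobase. No range of these 5 overlapped the next one in the order. The divisor was the union of all annotated exons of a gene, not the length of the transcripts present. For SLC25A3 this union was 8.896 kilobases, of a gene span of 12682 bases. The order, at the low end too, depends on this divisor. It therefore does not settle whether SLC25A1 or SLC25A39 had more transcripts than SLC25A3. At the low end stood SLC25A34 with 0.221 ± 0.0346 and the glutamate carrier SLC25A18 with 0.205 ± 0.0374 CPM per kilobase, whose ranges overlapped.

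Antimycin A raised more carrier transcripts than it lowered. In KO cells 21 members rose and 6 fell, 27 of 41, where 51% of all tested genes were called (26.4% up, 24.7% down). In WT cells 21 rose and 7 fell, against 51.9% of all genes (25.5% up, 26.4% down). The median log2 fold change over the members was 0.12 in KO and 0.11 in WT, against 0.02 and 0.01 over all tested genes. Members were also more abundant than the tested genes as a whole, with a median of 44.8 CPM against 21.2 CPM. Small changes are called more easily at higher counts, and the shares were not matched for this. Most of these changes were small. With a further demand of a ratio of 5 to 4 or more between the groups, 10 members passed in KO (24.4% of the members, against 20.6% of all genes) and 6 in WT (14.6%, against 22.1%). F137S cells had 20 members up and 7 down, where 51.2% of all genes were called (26.3% up, 24.9% down), and 9 members passed the larger ratio, as did 20.1% of all genes. The labelled rescue also had 20 up and 7 down, where 52.3% of all genes were called (25.9% up, 26.4% down), and 8 at the larger ratio, with 22% of all genes.

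In cells with dMTS-DELE1 fewer members passed, as did fewer of all genes. There 13 members rose and 2 fell, 15 of 41 or 36.6%, against 34.9% of all genes (17.6% up, 17.3% down), and 1 member passed the ratio of 5 to 4 (9.19% of all genes did). Over the 5 lines, 11 members rose in every one, namely SLC25A4, SLC25A5, SLC25A15, SLC25A23, SLC25A27, SLC25A28, SLC25A29, SLC25A30, SLC25A33, SLC25A51 and UCP2. SLC25A32 fell in every one. A further 7 members passed in no line, namely SLC25A3, SLC25A6, SLC25A14, SLC25A16, SLC25A18, SLC25A24 and SLC25A43. The share of all genes with the same patterns over the lines was not counted, so these counts are a description. Some lines were also close to each other. In vehicle, 0 of 16739 genes were called between the labelled rescue and WT, and 14 between F137S and KO. SLC25A38, the glycine carrier of haem synthesis, rose with dMTS-DELE1 and fell in F137S cells (0.11 ± 0.03 (SE), adjusted p = 0.00349 with dMTS-DELE1; -0.08 ± 0.03 (SE), adjusted p = 0.0229 in F137S).

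**Figure D1:**
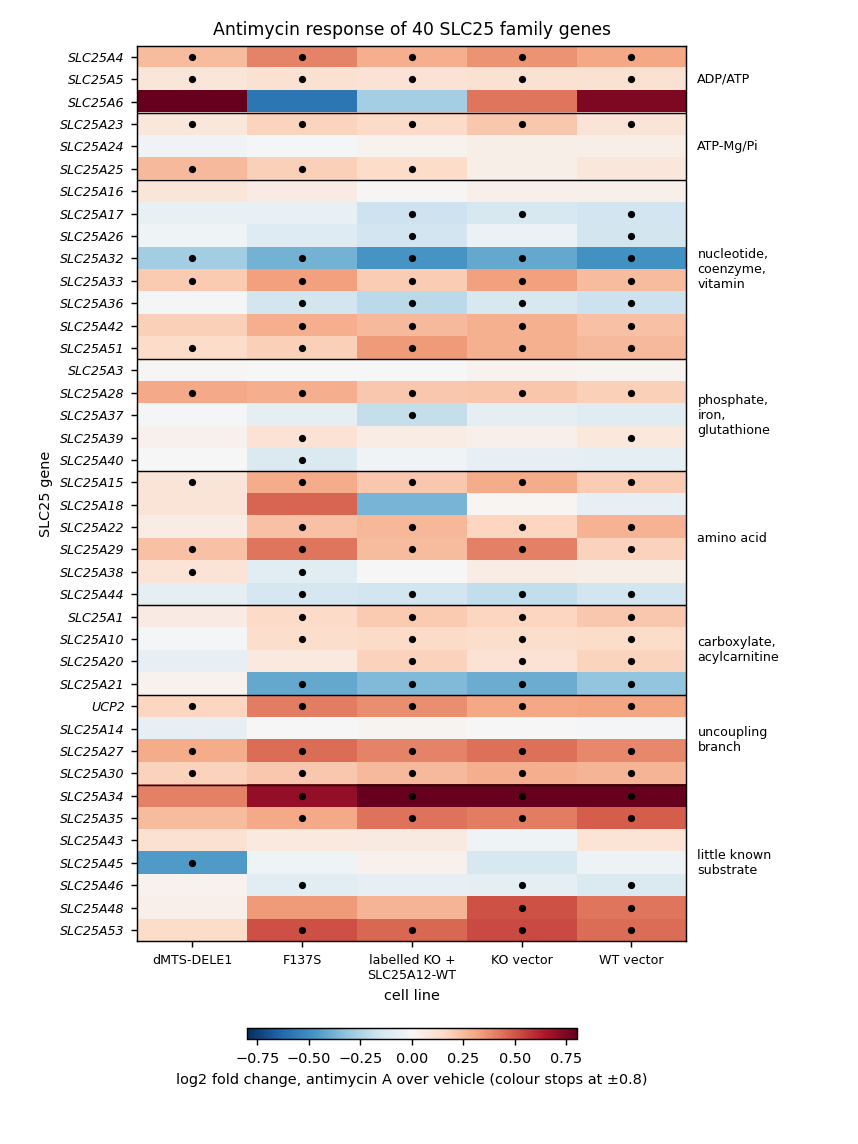
Log2 fold change of 40 of the 41 members in antimycin A over vehicle (colour; columns are the 5 lines, rows the members by role, dots mark an adjusted p under 0.05, 4 libraries per group). The column of the dMTS-DELE1 line has the fewest dots, 15, and SLC25A32 is the 1 member that fell in all 5 columns.

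The largest rise in WT was that of SLC25A34, a carrier of little known substrate. Its level was 0.961, 1.33, 1.02 and 0.588 CPM in antimycin-treated KO cells, against 0.699, 0.692, 0.473 and 0.315 CPM in vehicle, and in WT cells 2.09, 1.52, 1.03 and 1.46 CPM in antimycin A, against 0.562, 0.698, 0.732 and 0.829 CPM in vehicle. In KO 1 antimycin library lay within the range of the vehicle libraries, whereas the WT groups did not overlap. The log2 fold changes were 0.84 ± 0.30 (SE), adjusted p = 0.0145, in KO and 1.11 ± 0.28 (SE), adjusted p = 0.000460, in WT. SLC25A34 is a rare transcript with 6 to 65 counts per library, and its KO call was lost without vehicle library 4 (adjusted p = 0.0782) or without antimycin library 2 (adjusted p = 0.0864). Its relative SLC25A35 rose by 0.41 ± 0.10 (SE) in KO and 0.48 ± 0.10 (SE) in WT (adjusted p = 0.000401 and 2.51e-05). Their coding sequences were identical at 62.9% of aligned positions, with no identical run over 20 bases.

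SLC25A53, an orphan carrier encoded on the X chromosome, rose in KO and in WT. It stood at 12.3, 11.1, 11.4 and 11.2 CPM in antimycin-treated KO cells, against 8.29, 8.68, 7.34 and 7.59 CPM in vehicle, and at 10.7 to 12.3 CPM in antimycin-treated WT cells, against 7.86 to 8.47 CPM in vehicle. Neither pair of groups overlapped, and the log2 fold changes were 0.53 ± 0.08 (SE), adjusted p = 1.24e-07, in KO and 0.44 ± 0.08 (SE), adjusted p = 5.78e-06, in WT. With dMTS-DELE1 it stood at 7.77, 6.81, 7.92 and 8.14 CPM in antimycin A, against 6.11, 7.69, 8.11 and 5.79 CPM in vehicle. These groups overlapped, and the change was 0.14 ± 0.09 (SE), adjusted p = 0.200. SLC25A48, a carrier linked to choline import, had 3.97, 3.18, 3.00 and 3.00 CPM in antimycin-treated KO cells, against 2.57, 1.98, 2.46 and 2.23 CPM in vehicle. Those groups did not overlap, and the log2 fold change was 0.51 ± 0.16 (SE), adjusted p = 0.00492. SLC25A48 also rose in WT cells, at 3.34 to 4.17 CPM in antimycin A, against 2.66 to 3.21 CPM in vehicle. There the change was 0.43 ± 0.15 (SE), adjusted p = 0.0161.

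Of the 4 members of the uncoupling protein branch, 3 were called up in each line, where 17.6% to 26.4% of all genes were. UCP2, which limits the membrane potential and exports carbon metabolites, rose by 0.31 ± 0.04 (SE) in KO and 0.31 ± 0.04 (SE) in WT. SLC25A27 rose by 0.44 ± 0.07 (SE) and 0.39 ± 0.07 (SE) in the same lines, and SLC25A30 by 0.29 ± 0.04 (SE) and 0.27 ± 0.04 (SE). All 6 of these values had adjusted p-values of 6.42e-06 or less. SLC25A14, the branch's remaining member, did not pass in any line (-0.01 ± 0.05 (SE) in WT, adjusted p = 0.820).

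The ADP/ATP carriers SLC25A4 and SLC25A5 rose in all 5 lines. SLC25A4, the heart and muscle form, rose by 0.36 ± 0.04 (SE) in KO and 0.31 ± 0.04 (SE) in WT, and the far more abundant SLC25A5 by 0.12 ± 0.02 (SE) and 0.12 ± 0.02 (SE). SLC25A5 averaged 747 ± 12.2 CPM in antimycin-treated WT cells and 685 ± 13.6 CPM in vehicle (SD, n = 4 each), a small change on the largest transcript pool of the family. SLC25A6, which lies in the region shared by the X and Y chromosomes with identical transcripts on both, was not called in any line. It stood at 30.8, 91.1, 32.4 and 29.2 CPM in antimycin-treated WT cells, against 28.8, 26.3, 26.2 and 28.2 CPM in vehicle. One library in each of 4 groups stood apart for this gene, at 67.9 to 97.3 CPM, and the sources used here do not say how reads with a match on both copies were counted. Without those 4 libraries its log2 fold change was 0.17 in WT (adjusted p = 0.0766). In KO, which held none of the 4, the groups did not overlap. The KO value was 0.43 ± 0.42 (SE) with those libraries (adjusted p = 0.410) and 0.43 ± 0.07 (SE) without them (adjusted p = 7.03e-06). The KO change thus stayed and its SE fell, since all groups share 1 estimate of the spread.

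Of the 6 amino acid carriers, 3 rose and 1 fell in KO and likewise in WT. The shares of all genes were 26.4% up and 24.7% down in KO, and 25.5% up and 26.4% down in WT. SLC25A15, the ornithine carrier of the urea cycle, rose by 0.29 ± 0.03 (SE) in KO and 0.20 ± 0.03 (SE) in WT. SLC25A22, a glutamate carrier, rose by 0.17 ± 0.04 (SE) and 0.28 ± 0.04 (SE). SLC25A29, which imports arginine and lysine, rose by 0.40 ± 0.05 (SE) in KO and 0.19 ± 0.06 (SE) in WT, and this difference between the lines did not pass (0.21 ± 0.08 (SE), adjusted p = 0.194). SLC25A44, the carrier of branched-chain amino acids, was the 1 that fell, by 0.20 in KO and 0.14 in WT on the log2 scale.

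The nucleotide, coenzyme and vitamin carriers moved both ways, with 4 of 9 up and 3 down in KO and 3 up and 4 down in WT. Of all genes, 26.4% rose and 24.7% fell in KO, and 25.5% rose and 26.4% fell in WT. The NAD carrier SLC25A51 rose by 0.28 ± 0.06 (SE) in KO and 0.26 ± 0.06 (SE) in WT, the pyrimidine nucleotide carrier SLC25A33 by 0.33 ± 0.03 (SE) and 0.25 ± 0.03 (SE), and the coenzyme A carrier SLC25A42 by 0.28 ± 0.09 (SE) and 0.24 ± 0.09 (SE). The pyrimidine nucleotide carrier SLC25A36 and the peroxisomal cofactor carrier SLC25A17 fell in both lines, with log2 fold changes between -0.17 and -0.13. SLC25A32, which carries folate or FAD into mitochondria, fell the furthest of the called members in KO and in WT. It stood at 60.1, 55.9, 58.8 and 61.6 CPM in antimycin-treated KO cells, against 80.8, 77.5, 77.5 and 78.2 CPM in vehicle. No antimycin library reached the lowest vehicle library, and the log2 fold change was -0.41 ± 0.03 (SE), adjusted p = 1.36e-18. In WT cells it stood at 70.4, 73.3, 74.8 and 73.7 CPM in antimycin A, against 96.8, 106, 104 and 103 CPM in vehicle (-0.49 ± 0.03 (SE), adjusted p = 5.98e-23). SLC25A32, SLC25A10 and SLC25A6 are shown by library although chosen after their values were seen.

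Among the carriers of di- and tricarboxylates and acylcarnitines, SLC25A1, SLC25A10 and SLC25A20 rose and SLC25A21 fell, in KO and in WT. The citrate carrier SLC25A1, whose export product feeds lipid synthesis, rose by 0.17 ± 0.03 (SE) in KO and 0.21 ± 0.03 (SE) in WT. SLC25A21, which carries oxoadipate for lysine and tryptophan breakdown, fell by 0.40 in KO and 0.32 in WT on the log2 scale (adjusted p = 0.00357 and 0.0201). Its KO call was lost when antimycin library 2 was left out (adjusted p = 0.0579), and its WT call when vehicle library 1 or antimycin library 2 or 3 was left out (adjusted p 0.0561 to 0.0753). In the dMTS-DELE1 line it was 0.03 ± 0.12 (SE), adjusted p = 0.887. The difference of this response from that of F137S did not pass (0.44 ± 0.17 (SE), adjusted p = 0.0766). The mitoferrin SLC25A28, an iron importer, rose by 0.22 ± 0.05 (SE) in KO and 0.19 ± 0.05 (SE) in WT. The phosphate carrier SLC25A3 did not pass in either, with 95% intervals (normal approximation) of -0.01 to 0.06 in KO and -0.01 to 0.06 in WT.

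The other members passed in fewer lines. SLC25A25, another ATP-Mg/phosphate carrier, rose by 0.26 ± 0.05 (SE) with dMTS-DELE1, 0.19 ± 0.05 (SE) in F137S and 0.15 ± 0.05 (SE) in the labelled rescue. It had 0.05 ± 0.05 (SE), adjusted p = 0.438, in KO and 0.09 ± 0.05 (SE), adjusted p = 0.108, in WT. The glutathione importer SLC25A39 rose in F137S and WT. The S-adenosylmethionine carrier SLC25A26 fell in the labelled rescue and in WT, and SLC25A46, an outer membrane protein of mitochondrial dynamics, in F137S, KO and WT. The mitoferrin SLC25A37 fell in the labelled rescue, SLC25A40 in F137S, and SLC25A45 with dMTS-DELE1 (-0.45 ± 0.14 (SE), adjusted p = 0.00853). That call of SLC25A45 was lost without vehicle library 1 or antimycin library 1 (adjusted p 0.0518 to 0.0685). Differences between lines in these calls were tested as described further on.

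**Figure D2:**
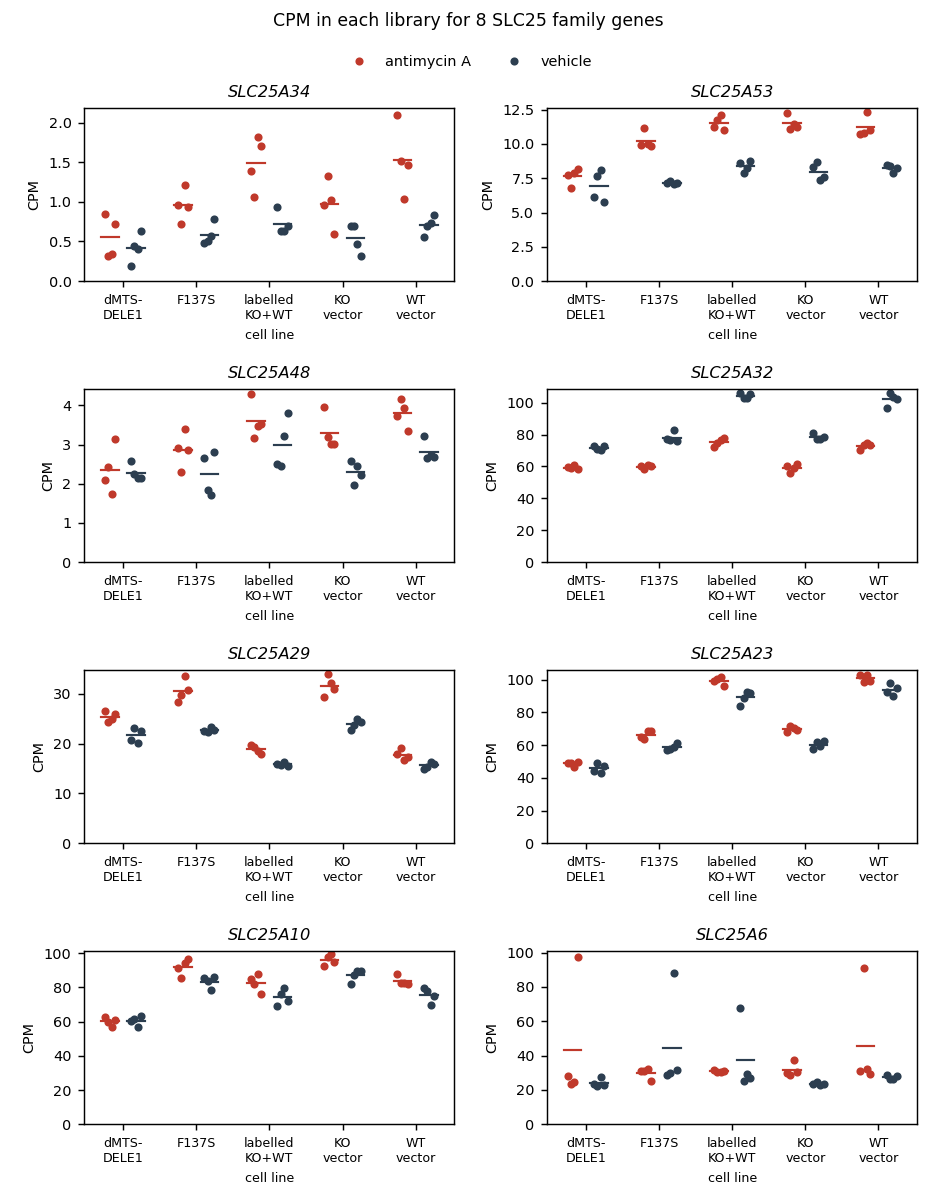
CPM of 8 members in each of the 40 libraries (points; linear axis, groups along the x axis with antimycin A left of vehicle in each line, short lines are group means of 4). SLC25A32 is lower in antimycin A in all 5 lines, SLC25A29 and SLC25A23 separate the dMTS-DELE1, F137S and KO lines from the labelled rescue and WT, and SLC25A6 has 4 single libraries at 67.9 to 97.3 CPM.

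In vehicle, 8 members were higher and 11 lower in KO than in WT, 19 of 41 or 46.3%, a share near the 48.3% of all genes called (22.7% up, 25.6% down). Of these, 6 differed by a ratio of 5 to 4 or more (14.6% of members, against 19.2% of all genes). The arginine and lysine carrier SLC25A29 rose the most, at 22.8, 23.7, 24.9 and 24.4 CPM in KO cells, against 14.9, 15.4, 16.4 and 15.9 CPM in WT cells. The groups did not overlap (0.62 ± 0.06 (SE), adjusted p = 8.86e-16). SLC25A23, a calcium-regulated carrier of ATP-Mg and phosphate, fell the most, at 57.4, 61.7, 59.7 and 62.3 CPM in KO cells, against 92.3, 98.1, 89.9 and 95 CPM in WT cells. Here too every KO library lay below every WT library (-0.64 ± 0.04 (SE), adjusted p = 7.15e-27).

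The acylcarnitine carrier SLC25A20, needed for fatty acid oxidation, was higher in KO by 0.39 ± 0.05 (SE), SLC25A33 by 0.35 ± 0.03 (SE) and the glutathione importer SLC25A40 by 0.29 ± 0.04 (SE). Lower in KO were SLC25A32 (-0.38 ± 0.03 (SE)), the ATP-Mg/phosphate carrier SLC25A25 (-0.32 ± 0.05 (SE)) and the coenzyme A carrier SLC25A42 (-0.32 ± 0.09 (SE)). The carriers that serve ATP synthase were also lower, with -0.25 ± 0.02 (SE) for SLC25A5 and -0.22 ± 0.02 (SE) for SLC25A3 (adjusted p = 1.33e-20 and 6.89e-19). By role, 3 of the 4 di- and tricarboxylate and acylcarnitine carriers were higher and none lower (all genes, 22.7% higher and 25.6% lower). Lower were 2 of the 3 ATP-Mg/phosphate carriers and 2 of the 3 ADP/ATP carriers, with none higher. None of the 4 members of the uncoupling branch passed (1 at an unadjusted p under 0.05, log2 fold changes between -0.16 and 0.02). SLC25A29 and SLC25A23 held the same direction under antimycin A, where 8 members were higher and 10 lower in KO than in WT (48% of all genes called, 23.5% up and 24.5% down), and 6 at the larger ratio (19.3% of all genes). There SLC25A29 differed by 0.83 ± 0.06 (SE) and SLC25A23 by -0.53 ± 0.04 (SE). SLC25A25-AS1, SLC25A5-AS1 and SLC25A21-AS1 are counted as separate rows, and without a stated strand setting reads of these pairs cannot be told apart.

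**Figure D3:**
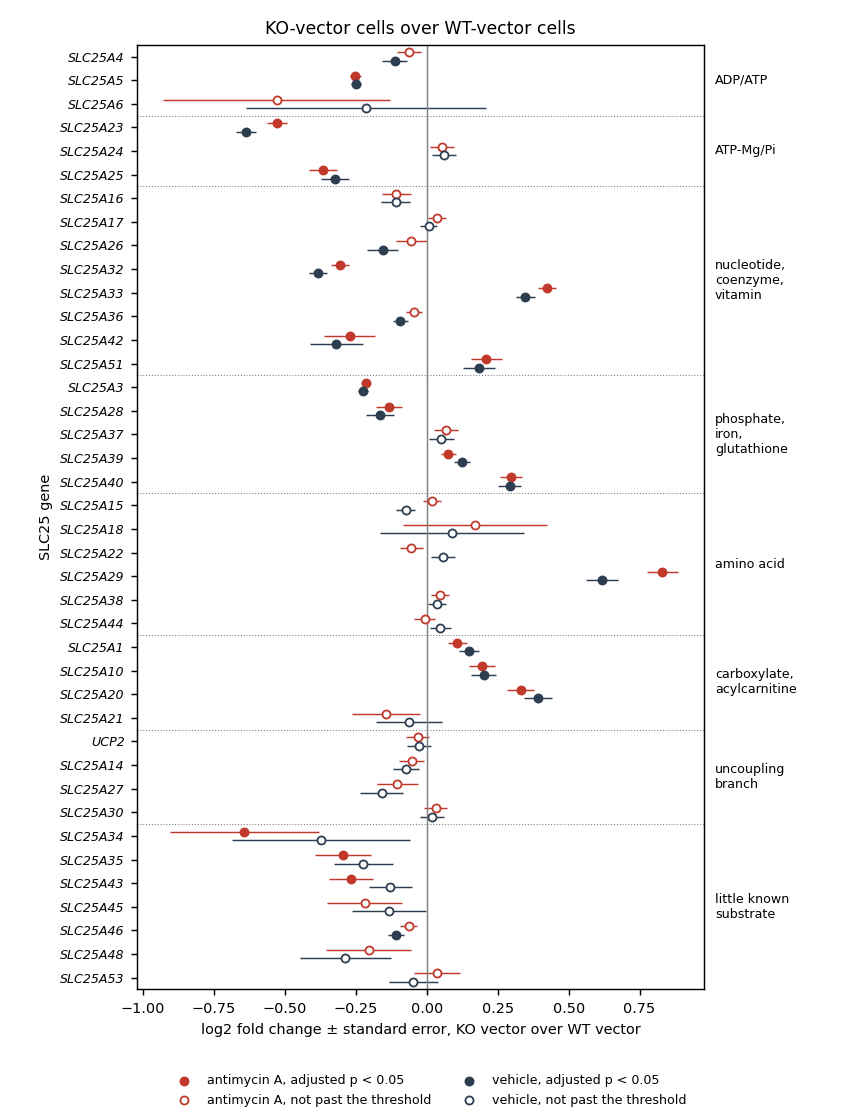
Log2 difference of 40 of the 41 members between KO and WT (points, bars are 1 SE, filled where the adjusted p was under 0.05; antimycin A and vehicle in separate colours, 4 libraries per group). SLC25A29 is furthest to the right and SLC25A23 far to the left in both treatments.

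SLC25A12-F137S did not move any carrier past the threshold. Between F137S and KO, 0 of 41 members were called in vehicle (4 at an unadjusted p under 0.05) and 0 in antimycin A (5 at an unadjusted p under 0.05), with edgeR, and DESeq2 also called 0. Of all genes, 0.0836% were called in vehicle and 0.114% in antimycin A, and 6.06% and 6.32% had an unadjusted p under 0.05. SLC25A29 stood at 22.6, 22.3, 23.3 and 22.7 CPM in F137S vehicle cells, against 22.8, 23.7, 24.9 and 24.4 CPM in KO. The 95% interval of this difference was -0.18 to 0.03 on the log2 scale, and the interval for SLC25A23 was -0.11 to 0.03. The labelled rescue differed from KO in 21 members in vehicle (13 up, 8 down), where 47.8% of all genes were called (25.3% up, 22.6% down). In antimycin A 22 members differed (12 up, 10 down), where 48.2% were called (24.7% up, 23.5% down). At the larger ratio 5 members passed in vehicle (19.2% of all genes) and 7 in antimycin A (19.5%). SLC25A29 had 16, 15.7, 16.2 and 15.4 CPM in the labelled rescue in vehicle, against 22.8, 23.7, 24.9 and 24.4 CPM in KO, and SLC25A23 had 83.8, 88.8, 92.5 and 92.1 CPM, against 57.4, 61.7, 59.7 and 62.3 CPM. Since KO is shared by both of these comparisons and by that with WT, their values are not independent of each other. Against WT, 0 members were called in vehicle and 0 in antimycin A (1 and 0 at an unadjusted p under 0.05, edgeR; 0 by DESeq2), where 0% and 0.00597% of all genes were called and 4.65% and 4.81% had an unadjusted p under 0.05.

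The antimycin response of the carriers did not differ detectably between KO and WT. In the test of that difference 0 of 41 members passed (edgeR; 2 at an unadjusted p under 0.05, 0 by DESeq2), where 1.57% of all genes did and 11.6% had an unadjusted p under 0.05. The same count of 0 was found for the labelled rescue against KO (2 at an unadjusted p under 0.05; 1.65% of all genes called, 11.7% at the unadjusted p). It was also found for F137S against KO (3 at an unadjusted p under 0.05; 0% of all genes called, 4.25% at the unadjusted p), with 0 by DESeq2 in both.

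Cells with dMTS-DELE1 had lower carrier transcripts than F137S cells in both treatments. The ISR genes ATF4, DDIT3, ATF3, TRIB3, ASNS and CHAC1 were all higher in the dMTS-DELE1 line in vehicle (6 of 6). Their log2 fold changes ran from 0.08 to 2.62, with a median of 1.74. These genes do not by themselves identify the construct. The 2 lines also differed in SLC25A12 itself, at 3693 to 3745 CPM against 1826 to 1867 CPM in vehicle. The construct, the SLC25A12 level and other differences between the lines therefore cannot be told apart. In vehicle 19 members fell and 1 rose, 20 of 41, against 41.8% of all genes (24.1% down, 17.7% up). In antimycin A 23 fell and 6 rose, 29 of 41, against 54.3% of all genes (28.8% down, 25.5% up). The member medians were -0.10 in vehicle and -0.17 in antimycin A, against -0.02 over all genes in both. At a ratio of 5 to 4 or more, 3 members passed in vehicle (7.32% of members, against 11.9% of all genes) and 9 in antimycin A (22% of members, against 21.6%). The summed CPM of the 41 members was 2860 to 2954 in antimycin A and 2759 to 2805 in vehicle with dMTS-DELE1, against 3211 to 3283 and 3074 to 3142 in F137S. In bulk cultures, less RNA per cell and fewer cells with the RNA cannot be told apart.

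The dicarboxylate carrier SLC25A10, which exchanges malate or succinate for phosphate, fell the most of the called members in vehicle. It stood at 60.1, 61.8, 56.9 and 63.5 CPM with dMTS-DELE1, against 85.3, 83.9, 78.3 and 86.2 CPM in F137S, and the groups did not overlap (-0.46 ± 0.05 (SE), adjusted p = 2.44e-11). In antimycin A it stood at 62.6, 60.0, 56.9 and 60.9 CPM with dMTS-DELE1, against 91.1, 85.2, 94.5 and 96.6 CPM in F137S (-0.61 ± 0.05 (SE), adjusted p = 2.26e-15). The citrate carrier SLC25A1 fell by 0.36 on the log2 scale in vehicle and by 0.44 in antimycin A, and the ATP-Mg/phosphate carrier SLC25A23 by 0.36 and 0.44. SLC25A23 had 43.9, 49, 42.9 and 47.2 CPM with dMTS-DELE1 in vehicle, against 56.7, 57.8, 59 and 61.2 CPM in F137S. The KO value of this carrier was already under that of WT, and the dMTS-DELE1 libraries lay below those of all other lines in vehicle.

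By role, only the uncoupling branch had a member that was higher in vehicle, where 17.7% of all genes were higher and 24.1% lower. Lower were 1 of 3 ADP/ATP carriers, 2 of 3 ATP-Mg/phosphate carriers and 3 of 9 nucleotide, coenzyme and vitamin carriers. So were 4 of 5 phosphate, iron and glutathione carriers, 3 of 6 amino acid carriers and 3 of 4 di- and tricarboxylate and acylcarnitine carriers. The uncoupling branch had 2 of 4 lower, and the carriers of little known substrate 1 of 7. SLC25A39 fell by 0.23, SLC25A5 by 0.23 and SLC25A3 by 0.11 on the log2 scale in vehicle (adjusted p = 1.58e-10, 2.64e-18 and 1.62e-07). SLC25A14, of the uncoupling branch, was the 1 member that rose (0.18 ± 0.05 (SE), adjusted p = 0.000712), while UCP2 and SLC25A30 fell by 0.14 and 0.28. The vehicle fall of SLC25A35 (-0.32 ± 0.10 (SE), adjusted p = 0.0101) was lost without F137S library 2 or 4, or without dMTS-DELE1 library 1 (adjusted p 0.0578 to 0.104), and when only the compared groups were fitted (adjusted p = 0.0598).

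In antimycin A the largest fall was that of SLC25A34, at 0.842, 0.314, 0.343 and 0.717 CPM with dMTS-DELE1, against 0.957, 0.715, 1.21 and 0.931 CPM in F137S. The groups overlapped (-0.78 ± 0.30 (SE), adjusted p = 0.0218), and the call was lost without F137S library 3 or dMTS-DELE1 library 2 or 3 (adjusted p 0.0872 to 0.111). The log2 difference was -0.61 ± 0.14 (SE) for SLC25A45, an orphan carrier, and -0.42 ± 0.08 (SE) for SLC25A53 (adjusted p = 0.000151 and 1.84e-05). The ornithine carrier SLC25A15 fell by 0.29 and the glutamate carrier SLC25A22 by 0.28 on the log2 scale. SLC25A21 rose by 0.45 ± 0.12 (SE) (adjusted p = 0.000875) and the glycine carrier SLC25A38 by 0.20 ± 0.03 (SE).

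**Figure D4:**
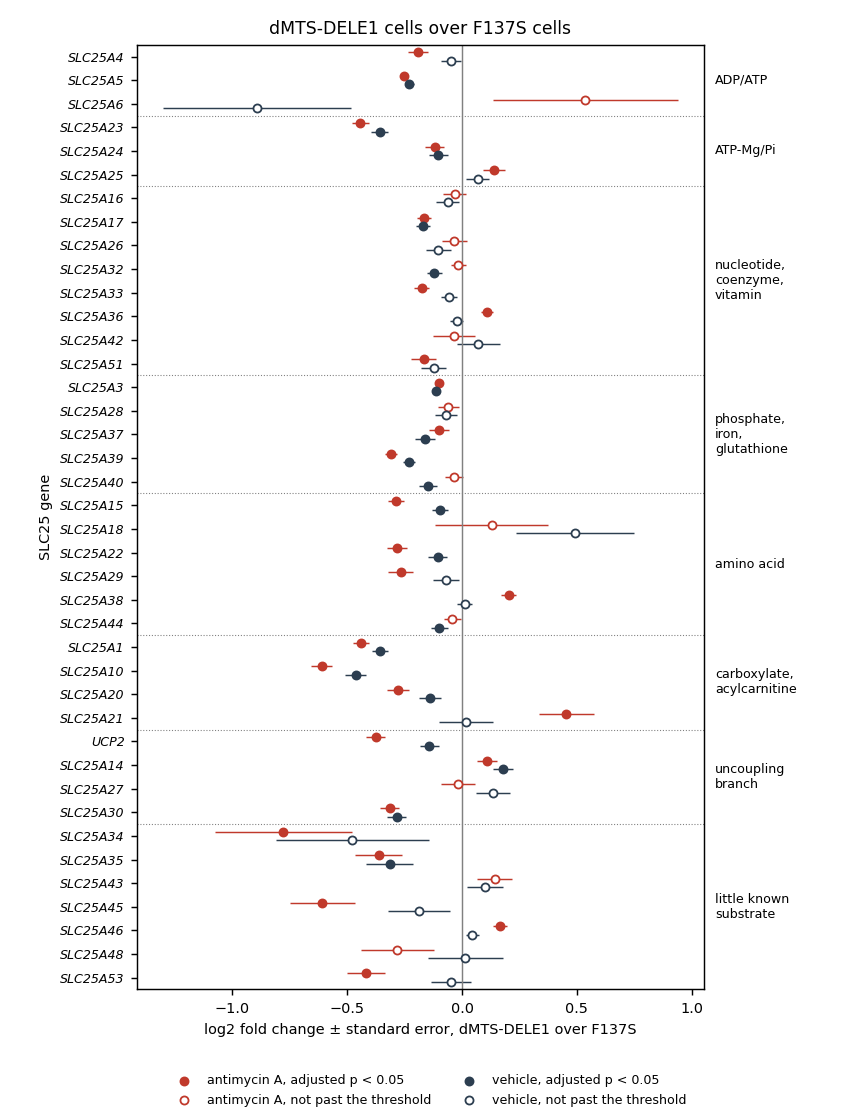
Log2 difference of 40 of the 41 members between dMTS-DELE1 and F137S cells (points, bars are 1 SE, filled where the adjusted p was under 0.05; antimycin A and vehicle in separate colours, 4 libraries per group). Most filled points lie left of 0, with SLC25A14 the 1 filled vehicle point to the right.

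The response to antimycin A differed between dMTS-DELE1 and F137S cells for 7 of 41 members (11.9% of all genes called, 8.24% up and 3.7% down). The signed difference, dMTS-DELE1 minus F137S, was positive for 3 and negative for 4. At the larger ratio 1 member passed (2.66% of all genes). SLC25A53 differed by -0.37 ± 0.12 (SE), adjusted p = 0.0314, UCP2 by -0.23 ± 0.06 (SE), adjusted p = 0.00389, SLC25A15 by -0.19 ± 0.05 (SE), adjusted p = 0.00283 and SLC25A22 by -0.18 ± 0.06 (SE), adjusted p = 0.0410. The 3 positive differences were those of SLC25A38, SLC25A36 and SLC25A46, at 0.19, 0.13 and 0.12. In F137S these 3 members fell with antimycin A (-0.08, -0.15 and -0.09), so a positive difference does not by itself mean a stronger response. For UCP2 the response was 0.17 ± 0.04 (SE) with dMTS-DELE1 and 0.41 ± 0.04 (SE) in F137S.

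The carriers' import machinery, the other transporters of the mitochondrial membranes and the ISR genes were followed beside the family. Of 13 import genes, 2 rose and 7 fell in KO cells with antimycin A, where 26.4% of all genes rose and 24.7% fell. In WT cells none rose and 8 fell (TOMM70 -0.34 and TOMM20 -0.28 on the log2 scale), where 25.5% of all genes rose and 26.4% fell. None rose and 6 fell with dMTS-DELE1, 1 rose and 7 fell in F137S, and 1 rose and 8 fell in the labelled rescue. Of all genes, 17.6%, 26.3% and 25.9% rose and 17.3%, 24.9% and 26.4% fell in these lines, in that order. Of 19 other transport genes 9 rose and 4 fell in KO, and 8 rose and 4 fell in WT, led in WT by the sodium/calcium exchanger SLC8B1 (0.59) and the sideroflexin SFXN2 (0.26). The pyruvate carrier subunits MPC1 and MPC2 were among the 8. Of the 6 ISR genes 5 rose in KO (median log2 fold change over the 6 of 0.79) and all 6 in WT (median 1.16), with CHAC1 at 3.17 and ATF3 at 1.58 in WT. With dMTS-DELE1 against F137S in vehicle, 12 of the 19 other transport genes fell and none rose, where 24.1% of all genes fell and 17.7% rose, among them SLC8B1 (-0.33) and VDAC1 (-0.30).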

How the data were processed

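RNA was measured in 40 HEK293T libraries (poly(A) enrichment, random hexamer priming, paired reads). The deposited table holds the authors' raw counts per gene symbol, made with HISAT2 2.1.0, featureCounts 2.0.6 and hg38 per the submitters' processing notes. The counting settings, gene annotation and strand mode were not stated in those notes. Counts were fitted with edgeR 4.0.16 (R 4.3.3; filterByExpr, TMM, 1 coefficient for each of 10 groups, quasi-likelihood test). P-values were adjusted by Benjamini-Hochberg over 16739 genes, and a gene was called at an adjusted p under 0.05. The SE is the absolute log2 fold change divided by the square root of F. The spread shared by all groups was 0.0509 as a common biological coefficient of variation.

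The 41 members, the lists and the tests were chosen with earlier results of these data known. Members were named when called with an absolute log2 fold change of 0.3 or more or among the 3 largest calls each way, and given by library from 0.5 in the WT or KO response or in KO against WT in vehicle. Some further members are named to account for the family, and 1 member enters the counts but is not reported here by name. DESeq2 1.42.0, other filters, a replicate block and left-out libraries were alternatives. Same-numbered libraries did not deviate together (correlations from -0.0392 to 0.051), so numbers were not treated as pairs. The fit was tested on simulated counts. Promoters came from RefSeq (GRCh38.p14) and exon lengths, as the union of all annotated exons per gene, from GENCODE. Protein sequences were not used here.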

Additional observations from a re-analysis of the deposited data

Results flagged for a closer look

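Single libraries stood apart from the other 3 of their group in 4 of 70 groups over 7 of the members shown by library, where chance gives about 1 in 20. They also did so in 4 of 10 groups for SLC25A6, which was added after its values were seen, so that its count is a description. For SLC25A6, the value was 67.9 CPM in vehicle library 1 of the labelled rescue (others 25.3 to 29.4) and 87.9 CPM in F137S vehicle library 3 (others 28.7 to 31.8). It was 91.1 CPM in WT antimycin library 2 (others 29.2 to 32.4) and 97.3 CPM in dMTS-DELE1 antimycin library 4 (others 23.3 to 27.9). SLC25A53 stood at 11.2 CPM in F137S antimycin library 2, against 9.84 to 10.00 CPM in the others. SLC25A48 stood at 3.21 CPM in WT vehicle library 1, against 2.66 to 2.73 CPM. SLC25A32 stood at 82.8 CPM in F137S vehicle library 3, against 75.9 to 77 CPM, and SLC25A10 at 88.1 CPM in WT antimycin library 1, against 82.3 to 82.8 CPM.

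The antimycin response differed between dMTS-DELE1 and F137S cells for 7 members in the test of the difference itself. The log2 differences were -0.37 for SLC25A53, -0.23 for UCP2, -0.19 for the ornithine carrier SLC25A15 and -0.18 for the glutamate carrier SLC25A22. They were 0.19 for the glycine carrier SLC25A38, 0.13 for the pyrimidine nucleotide carrier SLC25A36 and 0.12 for SLC25A46. The SLC25A53 call was lost without F137S antimycin library 2, dMTS-DELE1 vehicle library 2 or 3, or dMTS-DELE1 antimycin library 2 (adjusted p 0.0575 to 0.117). The call of SLC25A46 was lost in 13 of the single omissions (adjusted p 0.0646 to 0.217) and that of SLC25A36 in 8 (adjusted p 0.0658 to 0.123). When only the compared groups were fitted, the calls of SLC25A53, SLC25A36 and SLC25A46 were lost (adjusted p = 0.0650, 0.0763 and 0.151), and that of SLC25A53 was also lost with no filter on low counts (adjusted p = 0.0669).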

How the results depend on the processing

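The counts of called members kept their direction and stayed within 1.5 times under DESeq2 size factors, the DESeq2 Wald test, no filter, halved counts, members with a mean of 100 or more counts, fits on the compared groups only and fits that leave out the labelled rescue. A ratio of 5 to 4 or more left 1, 9, 8, 10 and 6 members in the antimycin responses of dMTS-DELE1, F137S, labelled rescue, KO and WT. It left 6 for KO against WT, 5 for the labelled rescue against KO and 3 for dMTS-DELE1 against F137S in vehicle, 6, 7 and 9 in antimycin A, and 1 for the difference in response of dMTS-DELE1 and F137S, by construction. With 1 library left out, called members ran from 11 to 18, 24 to 27, 26 to 28, 23 to 27 and 26 to 29 in the 5 responses in that order. The difference in response of dMTS-DELE1 and F137S ran from 4 to 9, with 4 without dMTS-DELE1 vehicle library 2 or antimycin library 4. With a replicate block the count for that difference was 7, and the call of SLC25A34 in the labelled rescue against KO in antimycin A (0.61, adjusted p = 0.0472) was lost (0.60, adjusted p = 0.0565). The block changed no other named call. That call was also lost with no filter (adjusted p = 0.0527), with the DESeq2 Wald test (adjusted p = 0.0520) and in 6 single omissions (adjusted p 0.0513 to 0.189). The call of SLC25A48 in the labelled rescue against KO in vehicle (0.37, adjusted p = 0.0475) was lost under 5 alternatives (adjusted p 0.0531 to 0.0739). It was also lost in 5 single omissions (adjusted p 0.0511 to 0.271). Fitting only the compared groups left the counts within that range but ended 3 of the 7 calls in the difference in response of dMTS-DELE1 and F137S, those of SLC25A53, SLC25A36 and SLC25A46. Without the 4 libraries in which SLC25A6 stood apart, chosen after seeing the data, its response in the labelled rescue was 0.18, against -0.27 with them (the cause was not tested). In dMTS-DELE1, F137S and WT it was then 0.08, -0.01 and 0.17. In KO, which held none of the 4, it was 0.43 with and without them, and was called only without them. Over all genes, F137S against KO gave 27 calls by DESeq2 and 7 with halved counts in vehicle, against 14, and 33 by DESeq2 in antimycin A, against 19. Depth limits SLC25A34 and SLC25A18, with 6 to 65 and 13 to 47 counts per library.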
